A study of Mus musculus with 3 samples.

Results

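The 32 genes described here are immediate early and stress-response genes, which cells switch on within minutes of a stimulus without making new protein first. They were chosen by symbol from a fixed list, and all 32 were found among the 31053 genes of the deposited tables. Their raw UMI counts (unique molecular identifiers, 1 per captured transcript) were read in 3 single-cell libraries of mouse liver, by cell class. The list includes genes that enzymatic dissociation of tissue is known to raise, so a level here is the level after perfusion and dissociation.

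The cells were liver non-parenchymal cells, that is, everything but hepatocytes, from perfused livers of female Balb\c mice. One library came from mice injected orthotopically with 4T1 cells 4 days earlier, one from mice injected with 4T1 cells 21 days earlier, and the control from mice injected with PBS. 4T1 is a mouse mammary carcinoma line derived from a BALB/c mouse, and orthotopic placement puts it in the mammary gland, so the liver is a distant organ. The labels give an age of 8 weeks for the day 4 and control libraries and 11 weeks for the day 21 library; they do not give the number of mice per library or the day on which the control was taken. Each group was 1 library, so no difference below has a replicate check and no p-value is given; both comparisons also share the 1 control library. Animal, age, day, batch and tumour cannot be told apart in this design.

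Immediate early genes carry binding sites for factors that are already present in resting cells, chiefly serum response factor and CREB, and phosphorylation of these factors by MAP kinases and protein kinase A starts transcription. Their products fall into families. FOS and JUN proteins pair to form AP-1, EGR and KLF proteins are zinc finger factors, and NR4A proteins are orphan nuclear receptors. REL is a subunit of NF-kB, and NFKBIA (IkB-alpha) is the inhibitor that holds NF-kB in the cytoplasm and is itself an NF-kB target. ZFP36 destabilises mRNAs with AU-rich elements, and DUSP1 and DUSP2 remove phosphate from MAP kinases, so both close the loop. In liver, KLF2 is known as the flow-induced factor of sinusoidal endothelium.

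Promoter sequence was available from RefSeq (GRCm38.p6) for 28 of the 32 genes, in 37 windows that run from 250 bases before a transcription start to 50 after it. The motif TGACG, the core of the CREB and ATF site, was read on both strands and stood in the windows of 18 of these 28 genes (64.3%), against 6228 of 27025 genes in the whole table (23.0%). The full palindrome TGACGTCA, which contains TGACG, was found for Btg2, Ppp1r15a, Maff and Dusp1 (14.3% of the member genes, against 2.03% of all genes). An NF-kB site stood in 8 of the 28 (28.6%, against 9.55% of all genes), namely Fos, Fosb, Maff, Egr2, Nr4a1, Ier3, Nfkbia and Rel. A CArG box, the site of serum response factor, stood in the windows of Zfp36 and Egr2 (7.14%, against 1.81%), and the AP-1 site TGANTCA in those of Csrnp1 alone (3.57%, against 8.97%). The member windows were also richer in CpG, with a median of 24 per window against 7 over all windows, and its part in the TGACG share was not tested. A match describes letters in a window and is no evidence of binding.

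In the mouse genome build GRCm38 (mm10), Fos lies on chromosome 12 (85473890 to 85477273, plus strand), Nfkbia on chromosome 12 (55489410 to 55492647, minus), Rel on chromosome 11 (23736847 to 23770970, minus), Klf2 on chromosome 8 (72319033 to 72321656, plus), Ier5 on chromosome 1 (155096361 to 155099636, minus), Myc on chromosome 15 (61985391 to 61990374, plus) and Nr4a1 on chromosome 15 (101254269 to 101274795, plus). All 32 are protein-coding genes. The following stretches upstream of the start sites show the motif in members whose levels differed most or in most classes, with the match in capitals (TGACG, or CGTCA where it is read on the other strand, for Fos, Fosb, Junb, Nr4a1 and Dusp1; the NF-kB site for Nfkbia and Rel). Each is given 5′ to 3′ on the gene's own strand. Fos lies at chr12:85473806-85473846 (plus strand), Fosb at chr7:19310083-19310123 (minus), Junb at chr8:84978832-84978872 (minus), Nr4a1 at chr15:101266788-101266828 (plus), Dusp1 at chr17:26508590-26508630 (minus), Nfkbia at chr12:55492649-55492694 (minus) and Rel at chr11:23771033-23771078 (minus).
Fos: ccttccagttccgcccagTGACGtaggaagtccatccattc
Fosb: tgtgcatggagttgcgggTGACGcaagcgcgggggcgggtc
Junb: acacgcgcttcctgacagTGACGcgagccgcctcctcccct
Nr4a1: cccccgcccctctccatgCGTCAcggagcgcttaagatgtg
Dusp1: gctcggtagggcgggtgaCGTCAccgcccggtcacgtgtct
Nfkbia: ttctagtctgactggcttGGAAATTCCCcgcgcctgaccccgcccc
Rel: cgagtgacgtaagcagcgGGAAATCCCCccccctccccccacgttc

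The tables held 9175 barcodes at day 4, 12338 at day 21 and 6489 in the control, with 34833820, 51913215 and 27191082 UMIs. After filtering, 5266, 9938 and 4694 cells were kept; the filter removed 39.96% of barcodes at day 4, 13.5% at day 21 and 27.0% in the control. The 3 libraries shared 13 to 32 barcode sequences per pair. Cells were grouped into 34 clusters without using the 32 genes, and clusters were named from marker genes as endothelial-like, Kupffer-like, stellate-like, T-like, B-like, neutrophil-like and others, so the class names are rebuilt and not the authors'. In every one of the first 6 classes all genes of its own marker list were detected in each library. Neutrophil-like cells were 29.3% of the kept day 21 cells, the largest class of that library by number of cells, and neutrophil markers were present at low level in its other classes: their sum over 11 genes was 12.02 CPM in endothelial-like cells at day 4 and 2541 CPM at day 21, against 11.9 CPM in the control, where CPM is the UMIs of a gene per 1000000 UMIs of the class. In B-like cells the same sum was already 605 CPM at day 4 and 2037 CPM at day 21, against 5.91 CPM in the control. The part of such free or foreign RNA in the values below was not tested.

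Together the 32 genes took 0.410% of endothelial-like UMIs at day 4 (95% exact Poisson interval 0.406 to 0.415) and 1.04% at day 21 (1.02 to 1.05), against 0.696% in the control (0.690 to 0.702). In stellate-like cells they took 0.412% at day 4 and 0.895% at day 21, against 0.710% in the control. Both of these resident, non-immune classes were thus lowest at day 4 and highest at day 21. Kupffer-like cells, the resident macrophages, had 0.574% at day 4 and 0.700% at day 21, against 0.821% in the control. T-like cells had 0.487% at day 4 and 0.658% at day 21, against 0.627% in the control. B-like cells had 0.656% at day 4 and 0.506% at day 21, against 0.873% in the control. Neutrophil-like cells had 1.29% at day 4 and 0.462% at day 21, against 1.69% in the control, the highest control share of the 6 classes. At day 4 the share was below the control in all 6 classes, and at day 21 it was above the control in endothelial-like, stellate-like and T-like cells. Intervals here and below cover counting error only and say nothing of the spread between mice.

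**Figure D1:**
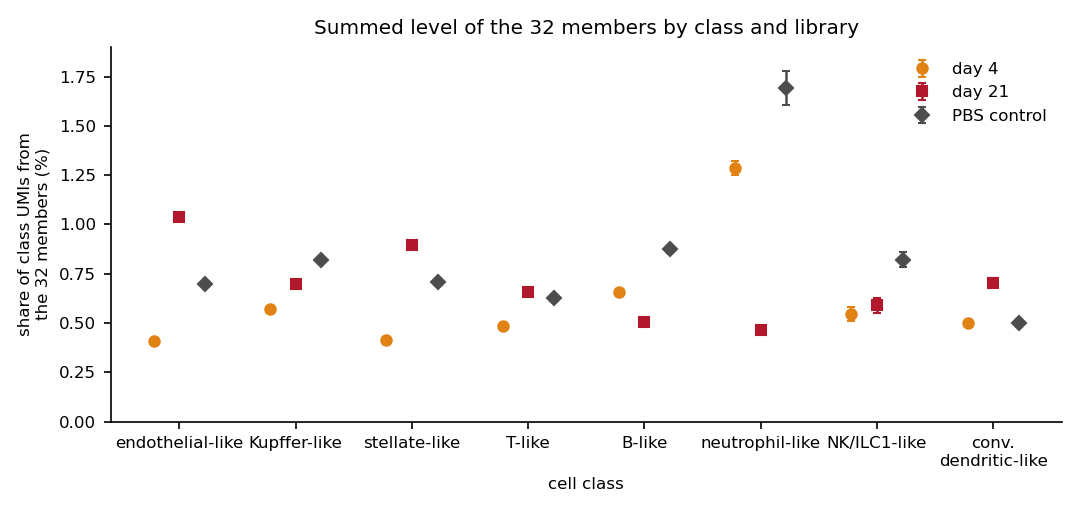
Share of each class's UMIs taken by the 32 genes (percent, y axis) in the day 4, day 21 and control libraries of 8 classes. Error bars are 95% exact Poisson intervals for counting error only. The day 4 value lies below the control in the 8 classes, with 0.499% against 0.501% in conventional dendritic-like cells, and endothelial-like cells at day 21 reach 1.04%.

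Because depth differed between libraries, each cell was also thinned to 1000 UMIs. The median endothelial-like cell then held 3 member UMIs at day 4 and 9 at day 21, against 6 in the control, after 15, 56 and 12 shallower cells were left out. Stellate-like cells held 4 at day 4 and 8 at day 21, against 6 in the control. Kupffer-like cells held 5 at day 4 and 7 at day 21, against 7 in the control. T-like cells held 5 and 6, against 6 in the control, and B-like cells held 6 and 6, against 10. Neutrophil-like cells held 14 and 4, against 18 in the control, where 49 cells were deep enough to be thinned. Without thinning, the endothelial-like median was 3.61 member UMIs per 1000 at day 4 and 9.42 at day 21, against 6.25 in the control. The order of the libraries within a class was the same by both routes in endothelial-like and stellate-like cells.

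**Figure D2:**
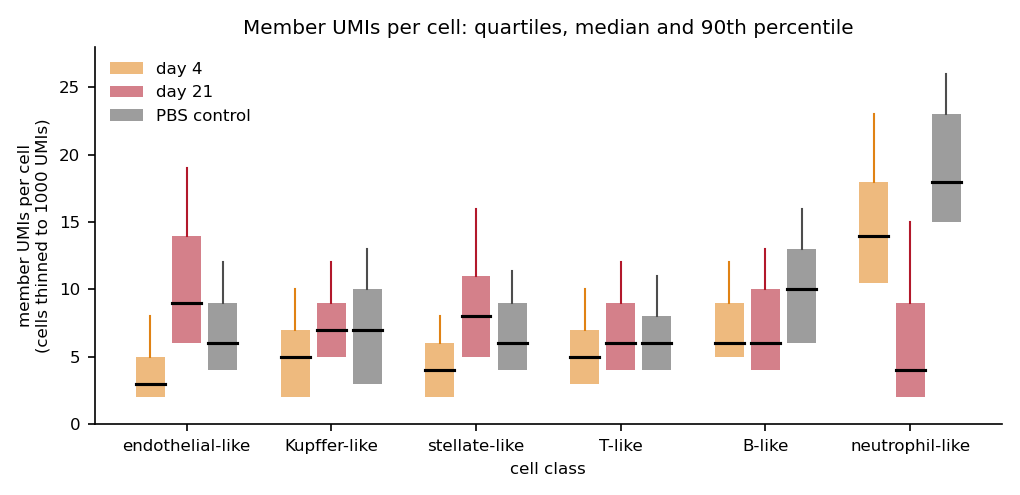
Member UMIs per cell after thinning each cell to 1000 UMIs (y axis), by class and library; boxes span the quartiles, black lines are medians and thin lines reach the 90th percentile of cells, which are not replicates. Endothelial-like cells at day 21 centre on 9, above the 6 of the control and the 3 of day 4.

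Which members make up the share differed between classes. In control endothelial-like cells Nfkbia, Klf2, Dusp1, Jun and Rhob together held 56.3% of member UMIs. In control T-like cells the leading 5 were Btg1, Klf2, Junb, Btg2 and Dusp2 with 68.7%, and in control B-like cells Btg1, Klf2, Junb, Jund and Btg2 with 69.3%. Btg1, an antiproliferative gene that lymphocytes at rest are known to express, also led in control neutrophil-like cells, followed by Dusp1 and Junb. Kupffer-like and stellate-like cells of the control were led by Dusp1 and by Nfkbia. At day 21 Nfkbia had left the leading 5 in endothelial-like, Kupffer-like and stellate-like cells, where Dusp1 and Junb were among the leading 5.

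In endothelial-like cells the 32 genes were mostly lower than in the control at day 4 and mostly higher at day 21. A member counts as measured in a comparison where the 2 class sums together hold 20 or more UMIs, and 29 of the 32 were measured in both comparisons; Egr2, Egr3 and Nr4a3 were not. At day 4, 7 of the 29 were at least 2-fold lower and 0 at least 2-fold higher, whereas 1.56% of the 11406 measured genes were 2-fold lower and 1.21% were 2-fold higher. At day 21, 14 were at least 2-fold higher and 1 was 2-fold lower, beside 7.7% and 5.02% of 11025 measured genes. The median log2 ratio to the control was -0.56 at day 4 and 0.95 at day 21, while over all measured genes it was 0.03 and 0.09. The 1524 day 4 cells and the 1409 control cells came mainly from clusters 0 and 11, and 88.9% of the 1025 day 21 cells from cluster 6. Median depth was 5151.5 UMIs per cell at day 4 and 2596 at day 21, against 5613 in the control.

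Among the AP-1 genes, Fos had 219.6 CPM at day 4 and 829 CPM at day 21, against 323 CPM in the control, and its log2 ratio to the control, with the exact 95% counting interval, was -0.56 (-0.65 to -0.47) at day 4 and 1.36 (1.27 to 1.44) at day 21. Jun had 367 CPM at day 4 and 722 CPM at day 21, against 454 CPM in the control. The partner Jund moved least of the JUN genes, with 371 CPM at day 4 and 509 CPM at day 21, against 405 CPM in the control. Atf3, a stress-induced repressor of the ATF family, was rare, with 2.94 CPM at day 4 and 17.9 CPM at day 21, against 2.89 CPM in the control. Its day 21 level rests on 48 UMIs against 23 in the control and gave a log2 ratio of 2.61 (1.88 to 3.41); the day 4 interval, 0.023 (-0.88 to 0.92), holds 0. All 7 AP-1 subunits and partners were measured; their median log2 ratio was -0.41 at day 4 and 1.36 at day 21, and 4 of the 7 were 2-fold higher at day 21. Egr1, an EGR factor that growth factor and stress signals induce, had 129 CPM at day 4 and 657 CPM at day 21, against 199 CPM in the control. Its log2 ratio was -0.62 (-0.74 to -0.51) at day 4 and 1.72 (1.62 to 1.82) at day 21. Egr2 and Egr3 had 0 UMIs at day 4, which allows up to 0.383 CPM each (a limit of 3 counts).

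The 3 KLF genes had a median log2 ratio of -1.35 at day 4 and 0.54 at day 21. Klf2 had 354 CPM at day 4 and 1433 CPM at day 21, against 1168 CPM in the control, with a log2 ratio of -1.72 (-1.79 to -1.66) at day 4 and 0.29 (0.24 to 0.35) at day 21. Klf4, its close relative in endothelium, had 77.7 CPM at day 4 and 288 CPM at day 21, against 198 CPM in the control. Klf6, which endothelium raises after vascular injury, had 79.8 CPM at day 4 and 358 CPM at day 21, against 178 CPM in the control. All 3 were more than 2-fold lower at day 4, and Klf6 alone of them reached 2-fold above the control at day 21. Nr4a1 had 3.96 CPM at day 4 and 50.3 CPM at day 21, against 9.18 CPM in the control. It was 2-fold lower at day 4 (-1.199, -1.87 to -0.59) and higher at day 21 (2.45, 2.03 to 2.88).

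The NF-kB members went the other way at day 21. Nfkbia had 626 CPM at day 4 and 394 CPM at day 21, against 1345 CPM in the control, so it was the most abundant member in the control and below it on both days, by log2 -1.103 (-1.15 to -1.05) at day 4 and -1.77 (-1.86 to -1.68) at day 21. Rel had 52.7 CPM at day 4 and 94.6 CPM at day 21, against 178 CPM in the control. Its log2 ratio was -1.76 (-1.92 to -1.602) at day 4, the lowest of all measured members with 50 or more UMIs, and -0.91 (-1.11 to -0.72) at day 21.

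The IER genes, short-lived regulators of signalling and growth, were all at least 2-fold above the control at day 21, while at day 4 Ier2 and Ier3 were close to it and Ier5 was higher. Ier2 had 63.8 CPM at day 4 and 286 CPM at day 21, against 64.9 CPM in the control. Ier3, a regulator of cell survival, had 87.8 CPM at day 4 and 354 CPM at day 21, against 86.4 CPM in the control. Ier5 had 55.5 CPM at day 4 and 142 CPM at day 21, against 36.9 CPM in the control, and was the member with the highest day 4 ratio, 0.59 (0.37 to 0.81). At day 21 the log2 ratios of Ier2, Ier3 and Ier5 were 2.14 (1.98 to 2.31), 2.03 (1.89 to 2.18) and 1.95 (1.73 to 2.17). Csrnp1, a cysteine and serine rich nuclear protein, had 17.1 CPM at day 4 and 40.2 CPM at day 21, against 36.7 CPM in the control, and its day 21 interval held 0. Gadd45b, a growth arrest gene, had 4.99 CPM at day 4 and 11.2 CPM at day 21, against 4.78 CPM in the control, on at most 39 UMIs per library. Gadd45g had 145 CPM at day 4 and 142 CPM at day 21, against 160.4 CPM in the control, and its day 4 and day 21 log2 ratios were -0.14 (-0.26 to -0.024) and -0.17 (-0.34 to -0.0062).

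Myc, the growth factor-induced driver of cell growth, had 1.28 CPM at day 4 and 46.2 CPM at day 21, against 1.51 CPM in the control. The counts behind it were 10, 124 and 12 UMIs at day 4, day 21 and in the control, and the day 21 log2 ratio of 4.88 (4.08 to 5.93) was the largest of any member in these cells. Rhob, a small GTPase of endothelial barrier control, had 249 CPM at day 4 and 513 CPM at day 21, against 436 CPM in the control. In cluster 24, the endothelial-like cluster that all 3 libraries share in number (61 cells at day 4, 51 at day 21 and 102 in the control), 13 of 23 measured members were 2-fold higher at day 21 and 2 were 2-fold lower, with a median log2 ratio of 1.15. Over all 5613 measured genes of that cluster 8.82% were 2-fold higher and 7.16% were 2-fold lower, and the median was 0.09. Nr4a1 had the highest ratio of the measured members there, 4.04, on 20 UMIs at day 21 and 4 in the control, and Myc, with 8 UMIs at day 21 and 0 in the control, was not measured. Nfkbia (-1.32) and Rel (-1.08) were again lower. Klf2 was higher in that cluster at day 21 than over the class, at 2.08. Cluster 24 held 4.00% of the class at day 4, 4.98% at day 21 and 7.24% in the control. Adgrg6, Vwf and Edn1 led it, and 9 of the 14 endothelial markers set it apart, against 14 for clusters 0, 6 and 11. Clusters 0 and 11 held 34 and 12 day 21 cells and cluster 6 held 5 control cells, too few to compare at day 21.

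**Figure D3:**
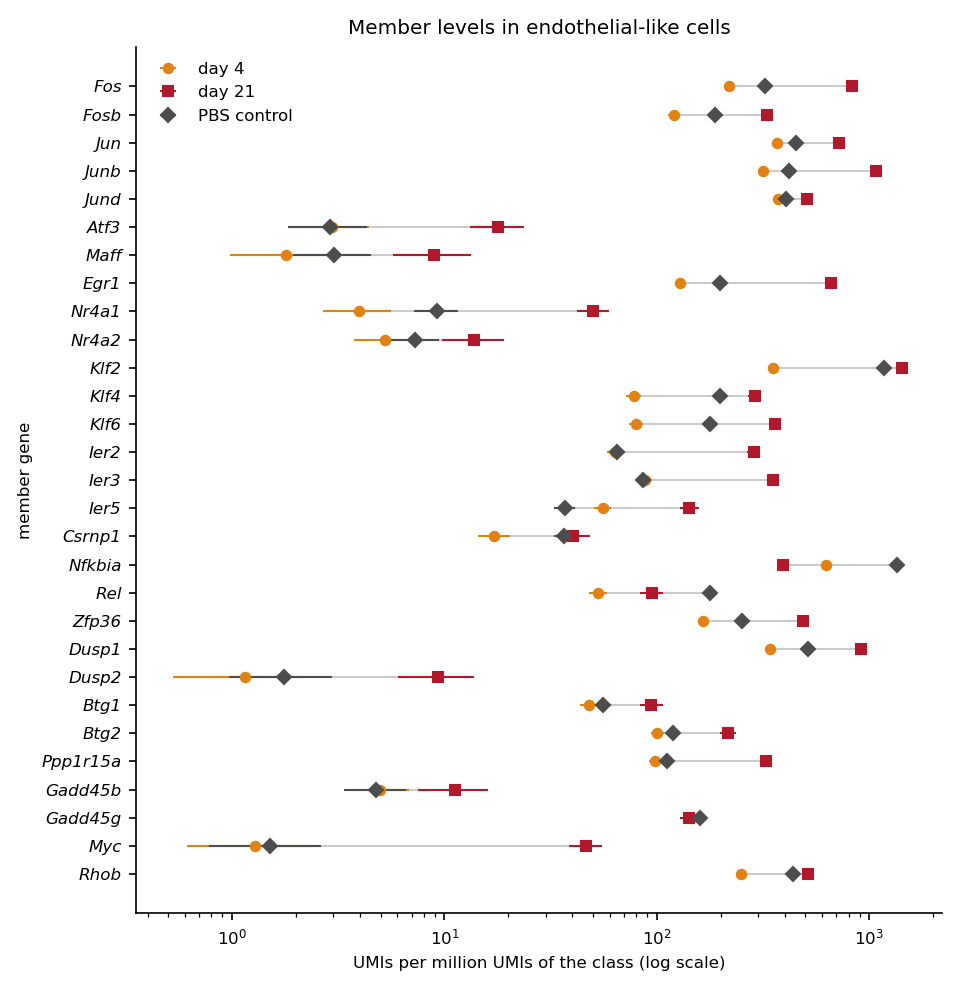
Levels of the 29 measured members in endothelial-like cells (CPM, log axis) at day 4, at day 21 and in the control, with 95% exact Poisson intervals. Most day 21 points lie to the right of the control and most day 4 points to its left, whereas Nfkbia and Rel lie to the left of the control on both days.

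In Kupffer-like cells the members were again mostly lower at day 4, but at day 21 they split. At day 4, 8 of 29 measured members were at least 2-fold lower and 1, Ier5, was 2-fold higher; over all 10616 measured genes the shares were 2.96% lower and 1.56% higher. At day 21, 6 of 31 were 2-fold higher and 4 were 2-fold lower, where the background was 6.01% and 5.98% of 9681 genes. The median log2 ratio was -0.46 at day 4 and -0.011 at day 21, against 0.00 and 0.09 over all measured genes. Maff, Egr2 and Egr3 were not measured at day 4, and Egr3 was not measured at day 21.

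The class holds 900 cells at day 4, 669 at day 21 and 472 in the control, but cluster 9 held 63.7% of the day 4 cells and 63.1% of the control cells, and cluster 3 held 95.1% of the day 21 cells. Cluster 3 is shallow: its cells had a median of 1912.5 UMIs at day 21, against 1719 in the control. Within cluster 3, 14 of 27 measured members were 2-fold higher at day 21 and 0 were 2-fold lower, beside 15.3% and 5.4% of the 7616 measured genes of that cluster, and the median log2 ratio was 1.13, against 0.24 over all of them. Fos (0.61), Junb (0.802), Dusp1 (0.83) and Klf2 (1.14) were above the control there at day 21, unlike over the class. The members took 0.694% of cluster 3 UMIs at day 21, against 0.387% in the control. With every cell of the class thinned to 1000 UMIs, the class-wide day 21 median was 0.37, and 4 rather than 8 members were 2-fold lower at day 4 and 1 rather than 4 at day 21. Neutrophil markers summed to 61.5 CPM in Kupffer-like cells at day 4 (9 of 11 detected, Ly6g and Il1r2 at 0) and to 6238 CPM at day 21 (11 of 11), against 60.5 CPM in the control (8 of 11, Retnlg, Mmp9 and Ly6g at 0).

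Fos, one of the most abundant members of these cells, had 594 CPM at day 4 and 521 CPM at day 21, against 763 CPM in the control. Jun had 213 CPM at day 4 and 232 CPM at day 21, against 182 CPM in the control, slightly above the control on both days (0.22 (0.09 to 0.36) and 0.35 (0.16 to 0.54)). Atf3 had 18.8 CPM at day 4 and 59.1 CPM at day 21, against 22.8 CPM in the control. It was 2-fold higher at day 21, with a log2 ratio of 1.37 (0.93 to 1.82), while the day 4 interval, -0.28 (-0.69 to 0.14), holds 0. Egr1 had 39.7 CPM at day 4 and 109 CPM at day 21, against 110.2 CPM in the control, which is a log2 ratio of -1.47 (-1.701 to -1.24) at day 4 and -0.011 (-0.28 to 0.25) at day 21. In cluster 3 alone Egr1 stood at 1.904 at day 21, so its class value is lower than its value within the cluster. Klf2 had 464 CPM at day 4 and 855 CPM at day 21, against 877 CPM in the control, and Klf4 had 38.8 CPM at day 4 and 103 CPM at day 21, against 104 CPM in the control. Both were lower at day 4 only, with log2 ratios of -0.92 (-0.99 to -0.85) and -1.43 (-1.66 to -1.19). Nr4a1 had 52.7 CPM at day 4 and 163 CPM at day 21, against 68.8 CPM in the control and was 2-fold higher at day 21 (1.24, 0.99 to 1.503).

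Ier5 stood above the control on both days, with 44.1 CPM at day 4 and 103 CPM at day 21, against 21.6 CPM in the control, or log2 1.02 (0.66 to 1.404) at day 4 and 2.24 (1.85 to 2.66) at day 21. Ier3 had 18.8 CPM at day 4 and 43.6 CPM at day 21, against 22.2 CPM in the control. Rhob had 86.5 CPM at day 4 and 234 CPM at day 21, against 76.6 CPM in the control. Both were near the control at day 4 and higher at day 21, Rhob by log2 1.61 (1.38 to 1.84). Gadd45g had 63.6 CPM at day 4 and 62.3 CPM at day 21, against 41.6 CPM in the control. Csrnp1 had the lowest day 4 ratio among members with 50 or more UMIs, -1.81 (-2.19 to -1.44), and had 13.7 CPM at day 4 and 20.5 CPM at day 21, against 48.3 CPM in the control. Ppp1r15a, which directs dephosphorylation of eIF2-alpha after stress, had 58.7 CPM at day 4 and 77.7 CPM at day 21, against 133 CPM in the control. It was lower on both days. Dusp2, a nuclear MAP kinase phosphatase of activated leukocytes, had 4.63 CPM at day 4 and 24.4 CPM at day 21, against 12.2 CPM in the control, on 31 to 44 UMIs per library. Btg2, a p53-induced antiproliferative gene, had 435 CPM at day 4 and 219 CPM at day 21, against 539 CPM in the control, and was the member with the lowest day 21 ratio, -1.300 (-1.47 to -1.13). Within cluster 3 its day 21 log2 ratio was 0.099. Nfkbia had 498 CPM at day 4 and 456 CPM at day 21, against 722 CPM in the control, and Rel had 58.1 CPM at day 4 and 56.5 CPM at day 21, against 120.4 CPM in the control. They were below the control on both days over the class, yet at 0.17 and -0.0074 within cluster 3 at day 21.

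Stellate-like cells, the vitamin A-storing pericytes of the sinusoid, had the largest number of members at least 2-fold lower at day 4 among the 6 classes, 11 of 28 measured, with 0 at least 2-fold higher; the background was 3.71% and 1.19% of 11197 genes. After thinning 7 were 2-fold lower. At day 21, 10 of 29 were 2-fold higher and 2 were 2-fold lower, beside 6.33% and 4.82% of 10858 genes. The median log2 ratio was -0.67 at day 4 and 0.48 at day 21, against 0.00 and 0.07 over all genes. Egr2, Egr3 and Nr4a3 were not measured on either day, nor was Dusp2 at day 4. Cluster 12 held 99.8% of the 427 day 4 cells and 96.6% of the 377 control cells, and cluster 22 held 97.4% of the 227 day 21 cells, so at day 21 no cluster could be compared on its own. Markers of other classes also differed in this class. Endothelial markers (14 of 14 detected in each library) had the largest sums, 6946 CPM at day 4 and 9686 CPM at day 21, against 8188 CPM in the control. Kupffer markers (12 of 12 detected in each library) summed to 220 CPM at day 4 and 983 CPM at day 21, against 1464 CPM in the control. Erythroid markers summed to 514 CPM at day 4 and 687 CPM at day 21, against 2032 CPM in the control. Neutrophil markers summed to 9.8 CPM at day 4 (5 of 11 detected) and 5096 CPM at day 21 (11 of 11), against 4.64 CPM in the control (6 of 11). Markers of neutrophil precursors summed to 3.36 CPM at day 4 and 468 CPM at day 21, against 1.71 CPM in the control, and those of monocytes and macrophages to 988 CPM at day 4 and 1697 CPM at day 21, against 773 CPM in the control. The part of these markers in the member values was not tested.

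Fos had 122 CPM at day 4 and 715 CPM at day 21, against 366 CPM in the control, a log2 ratio of -1.58 (-1.74 to -1.43) at day 4 and 0.97 (0.85 to 1.08) at day 21. Jun had 389 CPM at day 4 and 878 CPM at day 21, against 628 CPM in the control, and Jund had 457 CPM at day 4 and 453 CPM at day 21, against 561 CPM in the control. Jund was lower on both days, at -0.29 (-0.39 to -0.202) and -0.31 (-0.43 to -0.18). Maff, a small MAF protein that lacks an activation domain, had 8.400 CPM at day 4 and 19.3 CPM at day 21, against 40.3 CPM in the control. It had the lowest day 4 ratio of the class, -2.24 (-2.88 to -1.695), and was 2-fold lower at day 21 also. Atf3 had 2.24 CPM at day 4 and 30.4 CPM at day 21, against 3.18 CPM in the control, and its day 21 log2 ratio of 3.22 (2.34 to 4.28) was the highest of the measured members, on 44 UMIs against 13 in the control. Egr1 had 95.5 CPM at day 4 and 665 CPM at day 21, against 243 CPM in the control, lower at day 4 (-1.34, -1.53 to -1.17) and higher at day 21 (1.46, 1.33 to 1.58). Nr4a1 had 4.48 CPM at day 4 and 102 CPM at day 21, against 17.8 CPM in the control. Its day 4 ratio rests on 16 UMIs.

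Klf2 had 213 CPM at day 4 and 527 CPM at day 21, against 580.1 CPM in the control, and Klf4 had 28.3 CPM at day 4 and 127 CPM at day 21, against 124 CPM in the control. Both were more than 2-fold lower at day 4, with log2 ratios of -1.44 (-1.56 to -1.32) and -2.13 (-2.45 to -1.82), and close to the control at day 21, at -0.14 (-0.26 to -0.02) and 0.04 (-0.21 to 0.28). Klf6, which is known as an early gene of stellate cell activation, had 128 CPM at day 4 and 377 CPM at day 21, against 127 CPM in the control, with log2 0.016 (-0.17 to 0.200) at day 4 and 1.58 (1.400 to 1.75) at day 21. Ier3 had 62.2 CPM at day 4 and 221 CPM at day 21, against 65.5 CPM in the control, and Ier5 had 23.8 CPM at day 4 and 98.1 CPM at day 21, against 20.04 CPM in the control. Their day 4 intervals held 0, and their day 21 log2 ratios were 1.76 (1.52 to 1.995) and 2.29 (1.89 to 2.702). Myc had 7.84 CPM at day 4 and 55.3 CPM at day 21, against 9.04 CPM in the control, on 28, 80 and 37 UMIs at day 4, day 21 and in the control. Rhob had 395 CPM at day 4 and 336 CPM at day 21, against 587 CPM in the control, lower on both days. Nfkbia had 561 CPM at day 4 and 337 CPM at day 21, against 1074 CPM in the control, and its day 21 log2 ratio, -1.67 (-1.81 to -1.54), was the lowest of the class. Rel had 18.2 CPM at day 4 and 40.1 CPM at day 21, against 62.8 CPM in the control.

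In T-like cells 5 of 29 measured members were at least 2-fold lower at day 4 and 3 were at least 2-fold higher, where 1.95% and 3.99% of 9125 genes were. At day 21, 7 of 28 were 2-fold higher and 1 was 2-fold lower, beside 7.17% and 3.06% of 8679 genes. After thinning 1 member was 2-fold lower at day 4 and 4 were higher at day 21, and with a minimum of 50 UMIs 2 were lower at day 4. The median log2 ratio was -0.44 at day 4 and 0.29 at day 21, against 0.09 and 0.17 over all genes. Atf3, Egr2 and Nr4a2 were not measured on either day, nor Nr4a3 at day 21; Atf3 had 0 UMIs at day 4 and in the control, which allows up to 1.44 CPM and 1.22 CPM. Clusters 8 and 13 held all T-like cells in each library, 487 at day 4, 565 at day 21 and 649 in the control. They did not give the same picture. The member share in cluster 8 was 0.511% at day 4 and 0.632% at day 21, against 0.737% in the control, and the median log2 ratio was -0.88 and -0.23 (0.06 and 0.18 over all genes). In cluster 13 it was 0.466% at day 4 and 0.685% at day 21, against 0.486% in the control, with medians of 0.13 and 0.67 (0.06 and 0.10 over all genes). In cluster 13 Fos (0.37) and Ppp1r15a (0.14) were above the control at day 4, against their class values. Klf2 was above the control in cluster 13, at 0.43 and 1.14, as was Jun at day 21 (0.69) on 43 UMIs, whereas both were below it over the class. Whether the clusters differ was not tested. With a mitochondrial limit of 10% the medians were -0.70 at day 4 and 0.045 at day 21. In that setting a cluster led by Xcl1 and Cxcr6 stayed unnamed, with 214 cells at day 4, 117 at day 21 and 196 in the control. The class there held only the cluster led by Dapl1 and Lef1.

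Egr1, which T cells raise on antigen receptor signalling, was above the control on both days, with 55.3 CPM at day 4 and 134 CPM at day 21, against 26.4 CPM in the control. Its log2 ratio was 1.06 (0.61 to 1.53) at day 4 and 2.34 (1.91 to 2.79) at day 21, and it was above 0 on both days in both clusters (1.495 and 1.64 in cluster 8, 0.76 and 2.31 in cluster 13). Ier3 had 18.3 CPM at day 4 and 39.8 CPM at day 21, against 7.32 CPM in the control, the highest log2 ratio of the class on both days, 1.299 (0.47 to 2.22) and 2.42 (1.62 to 3.32). Gadd45b had 18.7 CPM at day 4 and 43.5 CPM at day 21, against 13.8 CPM in the control, and Zfp36 had 33.2 CPM at day 4 and 91.6 CPM at day 21, against 28.1 CPM in the control. Both were more than 2-fold higher at day 21 and not beyond counting error at day 4. Fos had 24.5 CPM at day 4 and 82.3 CPM at day 21, against 40.2 CPM in the control, lower at day 4 (-0.71, -1.23 to -0.21) and higher at day 21 (1.03, 0.603 to 1.46). Fosb had 20.2 CPM at day 4 and 32.4 CPM at day 21, against 16.3 CPM in the control, and Myc had 37.97 CPM at day 4 and 48.1 CPM at day 21, against 28.9 CPM in the control. Their day 4 intervals held 0.

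Jun had the lowest ratio of the class on both days among members with 50 or more UMIs, -1.99 (-2.58 to -1.46) and -0.81 (-1.36 to -0.32), with 16.3 CPM at day 4 and 37.00 CPM at day 21, against 65.5 CPM in the control. Junb, the abundant JUN gene of lymphocytes, had 409 CPM at day 4 and 1004 CPM at day 21, against 669 CPM in the control, and Jund had 347 CPM at day 4 and 286 CPM at day 21, against 476 CPM in the control. Junb was lower at day 4 and higher at day 21, and Jund was lower on both days. Rhob had 12.5 CPM at day 4 and 27.7 CPM at day 21, against 28.1 CPM in the control, on 26 to 69 UMIs per library. Ppp1r15a had 66.8 CPM at day 4 and 139.7 CPM at day 21, against 124 CPM in the control, and Dusp1 had 92.3 CPM at day 4 and 211 CPM at day 21, against 167 CPM in the control. Klf2, which maintains the migration programme of resting T cells, differed little, with 934 CPM at day 4 and 913 CPM at day 21, against 1109.5 CPM in the control and log2 ratios of -0.25 (-0.33 to -0.16) and -0.28 (-0.39 to -0.18). Nfkbia had 295 CPM at day 4 and 257 CPM at day 21, against 331 CPM in the control, and Rel had 32.2 CPM at day 4 and 41.6 CPM at day 21, against 51.6 CPM in the control. Both were lower at day 4, and Nfkbia also at day 21.

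B-like cells at day 21 were the class in which members stood below a background that was itself raised. At day 4, 7 of 26 measured members were at least 2-fold lower and 1, Egr3, was 2-fold higher, beside 2.89% and 3.27% of 7001 genes. At day 21, 7 of 27 were 2-fold lower and 3 were 2-fold higher, while 4.34% of 8757 genes were 2-fold lower and 24.2% were 2-fold higher. The median log2 ratio was -0.48 at day 4 and -0.49 at day 21, against 0.06 and 0.41 over all genes. Atf3, Maff, Egr2, Nr4a2 and Nr4a3 were not measured on either day, nor Ier3 at day 4. At day 21, 41.2% of the 723 B-like cells came from cluster 21, which held no control cell. The rest came from cluster 5, which held 99.5% of the 213 day 4 cells and 100% of the 327 control cells. The clusters were unlike: Igll1, Vpreb1 and Vpreb3, genes of early B cells, led cluster 21. Ms4a1, Fcmr and Ighd, genes of mature B cells, led cluster 5. Class-wide day 21 values thus set a mix of both against cluster 5 alone. Within cluster 5 the day 21 median was 0.12, with 3 of 26 measured members 2-fold higher and 1 2-fold lower, beside 10.9% and 3.3% of 7274 genes whose median was 0.25, and the member share was 0.792% at day 21, against 0.873% in the control. With doublets kept, the day 21 median was -0.0081 and 1 member was 2-fold lower. In that setting the cluster led by Igll1 and Vpreb1 (399 day 21 cells) stayed unnamed. The class there held only the cluster led by Ms4a1 and Fcmr (426 day 21 cells). Plasma cell markers (8 of 8 detected in each library) summed to 7333 CPM at day 4 and 905 CPM at day 21, against 5074 CPM in the control, and erythroid markers to 3226 CPM at day 4 and 1069 CPM at day 21, against 4367 CPM in the control. Of 10 measured heat shock chaperones, 9 were 2-fold higher at day 21, with a median of 1.69. The part of these genes in the member values was not tested.

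Junb had 537 CPM at day 4 and 369.6 CPM at day 21, against 1150.0 CPM in the control, the lowest day 21 ratio of the class, -1.64 (-1.77 to -1.504); in cluster 5 it was -0.61. Dusp1 had 132 CPM at day 4 and 131 CPM at day 21, against 392 CPM in the control, the lowest day 4 ratio, -1.56 (-1.89 to -1.26). Klf2, which in B cells restrains the marginal zone fate, had 1233 CPM at day 4 and 579.8 CPM at day 21, against 1502 CPM in the control. Its log2 ratio was -0.28 (-0.400 to -0.17) at day 4 and -1.37 (-1.48 to -1.26) at day 21 over the class, and -0.45 at day 21 in cluster 5. Btg2 had 427 CPM at day 4 and 272 CPM at day 21, against 684 CPM in the control, and Rel, the NF-kB subunit most tied to B cell activation, had 166 CPM at day 4 and 104 CPM at day 21, against 255 CPM in the control. Both were lower on both days. Rhob had 27.5 CPM at day 4 and 39.6 CPM at day 21, against 79.4 CPM in the control, and Ppp1r15a had 61.5 CPM at day 4 and 75.3 CPM at day 21, against 134 CPM in the control. Myc had 26.2 CPM at day 4 and 79.7 CPM at day 21, against 75.2 CPM in the control, more than 2-fold lower at day 4 (-1.495, -2.301 to -0.81) on 20 UMIs, with an interval that held 0 at day 21.

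A few genes stood above the control. Egr3, an EGR factor induced by antigen receptor signalling, had 30.1 CPM at day 4 and 28.7 CPM at day 21, against 12.7 CPM in the control, on 23, 53 and 15 UMIs at day 4, day 21 and in the control. Egr1 had 32.7 CPM at day 4 and 59.6 CPM at day 21, against 25.3 CPM in the control, with a log2 ratio of 1.22 (0.64 to 1.87) at day 21 and an interval that held 0 at day 4. Within cluster 5 the day 21 log2 ratios of Egr1 and Egr3 were 2.27 and 2.39. Jun had 35.3 CPM at day 4 and 159.9 CPM at day 21, against 86.2 CPM in the control, lower at day 4 (-1.27, -1.96 to -0.66) and higher at day 21 (0.89, 0.56 to 1.23). Fos had 56.3 CPM at day 4 and 82.9 CPM at day 21, against 65.9 CPM in the control, with both intervals holding 0; in cluster 5 its day 21 log2 ratio was 1.41. Dusp2 had 338 CPM at day 4 and 382 CPM at day 21, against 282 CPM in the control, and Zfp36 had 171 CPM at day 4 and 216 CPM at day 21, against 155 CPM in the control. Their differences stayed under 2-fold. Ier5 had 202 CPM at day 4 and 122 CPM at day 21, against 123 CPM in the control, Gadd45b had 47.1 CPM at day 4 and 18.97 CPM at day 21, against 27.04 CPM in the control, and Gadd45g had 32.7 CPM at day 4 and 25.5 CPM at day 21, against 24.5 CPM in the control. Over the class Ier5 and Gadd45b were higher at day 4 only, but in cluster 5 Ier5 was 0.71 at day 4 and 0.92 at day 21.

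Neutrophil-like cells rest on 56 control cells with 89076 UMIs, against 191 cells at day 4 and 2907 at day 21, so the control is the limit of every ratio. At day 4, 1 of 21 measured members, Ier3, was at least 2-fold higher and 0 were 2-fold lower, beside 6.25% and 8.33% of 2449 genes. At day 21, 25 of 29 were 2-fold lower and 0 were 2-fold higher, but 53.6% of 7381 genes were 2-fold lower and 5.23% were 2-fold higher. The median log2 ratio was -0.27 at day 4 and -1.97 at day 21, against -0.12 and -1.10 over all genes. The day 21 cells came from clusters 2, 4 and 10 (1059, 964 and 884 cells), and those of the other libraries mainly from cluster 2 (94.8% at day 4 and 94.6% in the control). Neutrophil markers summed to 213261 CPM at day 4 and 428622 CPM at day 21, against 167643 CPM in the control. Within cluster 2 the day 21 median was -0.34, against -0.50 over all genes, and 6 of 27 measured members were 2-fold lower and 2 were 2-fold higher, beside 29.3% and 11.6% of 4549 genes; clusters 4 and 10, which hold the other day 21 cells, could not be compared with the control. At day 4, 11 members were not measured (Fosb, Jun, Maff, Egr2, Egr3, Nr4a1, Nr4a2, Nr4a3, Klf4, Dusp2 and Myc), and at day 21 Maff, Nr4a2 and Nr4a3 were not.

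Btg1 had 3227 CPM at day 4 and 708 CPM at day 21, against 3828 CPM in the control, and Dusp1, which restrains p38 and JNK signalling in myeloid cells, had 2130.3 CPM at day 4 and 666 CPM at day 21, against 3503 CPM in the control. Both were lower on both days, at day 21 with log2 ratios of -2.44 (-2.59 to -2.27) and -2.398 (-2.56 to -2.23). Junb had 1585 CPM at day 4 and 752 CPM at day 21, against 1785 CPM in the control. Fos had 622 CPM at day 4 and 303 CPM at day 21, against 1067 CPM in the control, a log2 ratio of -0.78 (-1.13 to -0.41) at day 4 and -1.82 (-2.11 to -1.51) at day 21. In cluster 2 at day 21 Fos was 0.103 and Junb 0.297, so neither was lower within the cluster that the libraries share. Jund had 625 CPM at day 4 and 162 CPM at day 21, against 876 CPM in the control, and Nfkbia had 789.6 CPM at day 4 and 253 CPM at day 21, against 1168 CPM in the control. Those stayed lower within cluster 2, at -1.06 and -1.39. Klf2 had 472 CPM at day 4 and 427 CPM at day 21, against 898 CPM in the control, lower on both days. With the median gene set to 0 its day 21 log2 ratio was 0.016.

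Ier3 was the exception, with 199 CPM at day 4 and 155 CPM at day 21, against 78.6 CPM in the control, a log2 ratio of 1.25 (0.22 to 2.71) at day 4 and 0.88 (-0.068 to 2.296) at day 21, the second with an interval that holds 0. Its control value rests on 7 UMIs. Ier2 had 469 CPM at day 4 and 261 CPM at day 21, against 539 CPM in the control, and Ier5 had 415 CPM at day 4 and 148 CPM at day 21, against 359 CPM in the control. Zfp36, whose loss in mice is known to cause systemic inflammation, had 480.0 CPM at day 4 and 165 CPM at day 21, against 505 CPM in the control. Its log2 ratio was -0.085 (-0.56 to 0.43) at day 4 and -1.63 (-2.04 to -1.16) at day 21. Gadd45b had 176 CPM at day 4 and 38.7 CPM at day 21, against 157 CPM in the control. Egr1 had 76.7 CPM at day 4 and 41.04 CPM at day 21, against 123 CPM in the control, and Atf3 had 45.4 CPM at day 4 and 8.92 CPM at day 21, against 44.9 CPM in the control; the control values rest on 11 and 4 UMIs. Rhob had 76.7 CPM at day 4 and 19.3 CPM at day 21, against 123 CPM in the control, and Rel had 53.97 CPM at day 4 and 20.1 CPM at day 21, against 101 CPM in the control. Csrnp1 had 102 CPM at day 4 and 36.2 CPM at day 21, against 56.1 CPM in the control, and Jun had 34.1 CPM at day 4 and 37.4 CPM at day 21, against 67.4 CPM in the control, with day 21 intervals that held 0. Fosb had 5.68 CPM at day 4 and 9.59 CPM at day 21, and 0 UMIs in the control, which allows up to 33.7 CPM, so no ratio is given; it is counted among the 29 measured members and among neither those higher nor those lower.

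**Figure D4:**
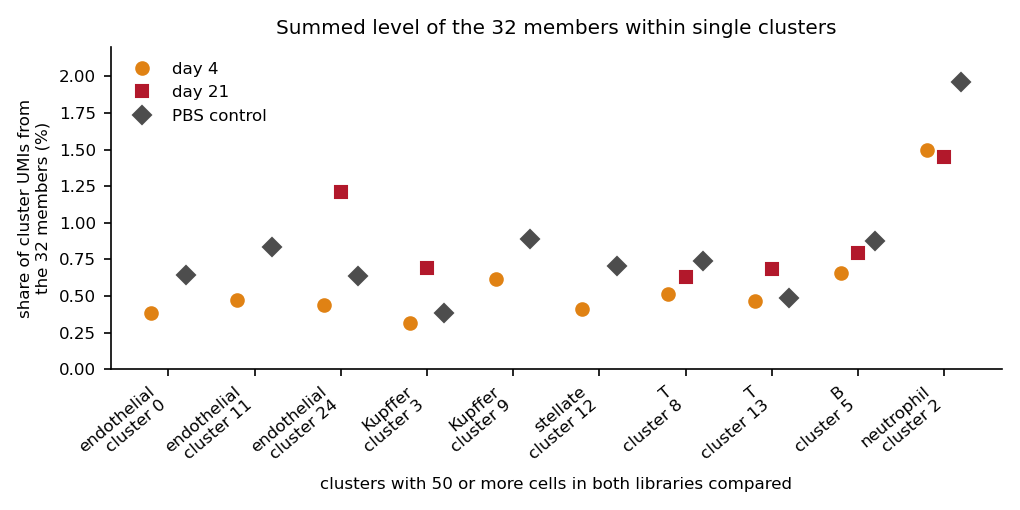
Share of each cluster's UMIs taken by the 32 genes (percent, y axis) in single clusters that hold 50 or more cells in both libraries compared (x axis). The day 21 point lies above the control in endothelial-like cluster 24 (1.21% against 0.635%), Kupffer-like cluster 3 (0.694% against 0.387%) and T-like cluster 13 (0.685% against 0.486%), and the day 4 point lies below the control in all 10 clusters.

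Set side by side over the 6 classes, some members kept one direction. The classes of a day come from the same day and control libraries, so agreement between classes is not a replicate. The share of all measured genes with the same agreement is not given, here or for day 21 below. Dusp1, Jund, Btg1 and Klf2 were below the control at day 4 in 6 of 6 classes with intervals that exclude 0. For Dusp1 the log2 ratios ran from -1.56 to -0.41, for Klf2 from -1.72 to -0.25, for Jund from -0.55 to -0.12 and for Btg1 from -0.88 to -0.21. Fos, Junb, Btg2 and Ppp1r15a were lower in 5 of 6 classes at day 4. Of these, Jund, Fos and Junb encode AP-1 subunits, and Dusp1, Btg1, Btg2 and Ppp1r15a are feedback or growth arrest genes.

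In single clusters at day 4 the exceptions included T-like cluster 13, where Klf2 was 0.43, Fos 0.37, Ppp1r15a 0.14 and Jund 0.12. Another was endothelial-like cluster 24, where Btg1 was 0.42.

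At day 21 Dusp1 and Junb divided by class. They were above the control in endothelial-like, stellate-like and T-like cells, and both were below it in the other 3. In Kupffer-like cluster 3 both were above it. Zfp36 and Dusp2 were higher in 5 of 6 classes, with neutrophil-like cells the exception. Ier3 was higher with intervals above 0 in 5 of the 6 classes, with a log2 ratio of 0.88 to 2.42 over all 6. Egr1 and Nr4a1 were each higher in 4 of 6 classes at day 21.

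Nfkbia, Rel and Jund stood below the control, with intervals that exclude 0, in at least 5 of 6 classes on both days. Jund was lower in 6 of 6 at day 4 and in 5 of 6 at day 21, and higher at day 21 in endothelial-like cells. Klf2 and Btg2 were lower in 4 of 6 at day 21. Nfkbia was lower in 5 of 6 classes at day 4, where B-like cells had an interval that held 0, and in 6 of 6 at day 21, at log2 ratios of -2.21 to -0.36. Rel was lower in 5 of 6 on both days, at -1.78 to -0.62 at day 4 and at -2.41 to -0.30 at day 21. In Kupffer-like cluster 3 at day 21 Nfkbia was 0.17 and Rel -0.0074, and in T-like cluster 13 Nfkbia was 0.059 at day 4 and Rel 0.25 at day 21. Ier5 was at or above the control at day 4 in all 6 classes, from 0.19 to 1.02, with intervals above 0 in 3 of them.

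**Figure D5:**
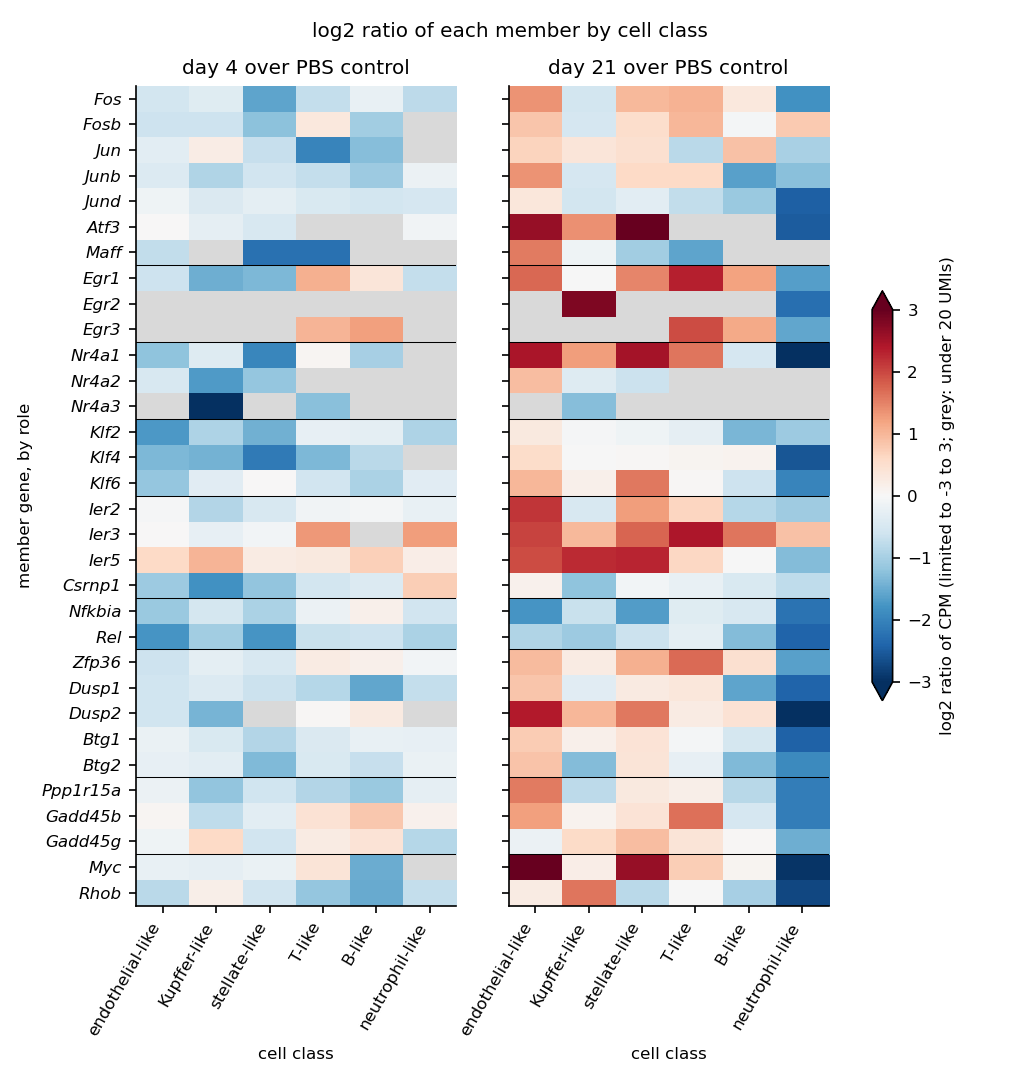
Log2 ratio to the control of each member (rows, in order of role) in 6 classes (columns), with day 4 on the left and day 21 on the right; grey cells had under 20 UMIs, and the scale stops at -3 and 3. At day 4 most cells are below 0 and Ier5 is above it; at day 21 the endothelial-like and stellate-like columns are mostly above 0 while Nfkbia is below. Fosb in neutrophil-like cells at day 21 has 0 control UMIs, so its colour depends on the 0.5 counts added.

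Other genes of the same pathways were read from lists that were not part of the 32. Targets and brakes of MAP kinase signalling and serum response factor had a median log2 ratio of -0.03 at day 4 and 0.29 at day 21 over 20 measured genes of endothelial-like cells. At day 4, 2 of the 20 were 2-fold lower and 0 higher, and at day 21, 3 were 2-fold higher and 0 lower. Over all measured genes of endothelial-like cells 1.56% were 2-fold lower and 1.21% higher at day 4. At day 21 the shares were 5.02% lower and 7.7% higher. Dusp5, a phosphatase of ERK, had 15.5 CPM at day 4, against 47.04 CPM in the control (-1.601), with the log2 ratio in parentheses, and 128 CPM at day 21, against 47.04 CPM in the control (1.44). Spry4, a feedback inhibitor of receptor tyrosine kinases, had 23.5 CPM at day 4, against 69.2 CPM in the control (-1.55) and 202 CPM at day 21, against 69.2 CPM in the control (1.54). Both were lower at day 4 and higher at day 21, as most members were. Other NF-kB genes had medians of 0.10 at day 4 and 0.86 at day 21, with 2 of 15 lower at day 4 and 6 of 16 higher at day 21. Bcl3, an IkB family coactivator, had 55.9 CPM at day 21, against 6.04 CPM in the control (3.200), and Nfkbiz, IkB-zeta, had 181 CPM at day 21, against 65.8 CPM in the control (1.46). Nfkbia and Rel were below the control at day 21 while these genes of the same pathway were above it.

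Genes of the glucocorticoid response had medians of -0.87 at day 4 and -0.76 at day 21 in endothelial-like cells, with 3 of 9 and 4 of 9 measured genes 2-fold lower and 0 higher. In Kupffer-like cells the medians were -0.48 and -1.44, with 1 of 9 and 5 of 9 2-fold lower. Over all measured genes of endothelial-like cells 1.56% were 2-fold lower at day 4 and 5.02% at day 21. For Kupffer-like cells these shares were 2.96% and 5.98%. Ddit4, an inhibitor of mTORC1, had 53.3 CPM at day 4, against 199.7 CPM in the control (-1.904) and 25.3 CPM at day 21, against 199.7 CPM in the control (-2.97) in endothelial-like cells. Cdkn1a, the p21 inhibitor of the cell cycle, had 41.1 CPM at day 4, against 279 CPM in the control (-2.76) and 17.3 CPM at day 21, against 279 CPM in the control (-3.98) in Kupffer-like cells. Both were below the control on both days.

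Heat shock chaperones had a median of 0.54 at day 4 and 0.44 at day 21 in endothelial-like cells, with 4 of 12 2-fold higher at day 4, 3 of 12 at day 21 and 0 lower on either day. At day 21, 5 of 11 were 2-fold higher in T-like cells, where the median was 0.996. Over all measured genes of endothelial-like cells 1.21% were 2-fold higher at day 4 and 7.7% at day 21. For T-like cells at day 21 this share was 7.17%. Hspa1b, an inducible HSP70, had 34.9 CPM at day 4, against 7.42 CPM in the control (2.22) and 105 CPM at day 21, against 7.42 CPM in the control (3.81); its near-identical copy Hspa1a shares reads with it, so the split between them is uncertain. Other dissociation-linked genes, those not among the 32, had medians of -0.17 at day 4 and 0.48 at day 21 in endothelial-like cells and -0.37 and -0.08 in Kupffer-like cells. In endothelial-like cells at day 21, 4 of 23 measured were 2-fold higher and 2 lower, beside 7.7% and 5.02% of all measured genes. Socs3, the cytokine-induced inhibitor of JAK signalling, had 422 CPM at day 21, against 61.8 CPM in the control (2.77). Errfi1 (-1.23) and Klf10 (-1.03) were lower than the control at day 21. Endothelial flow-response genes had medians of -0.25 at day 4 and 0.18 at day 21. At day 21, 5 of 16 measured were 2-fold higher and 3 lower. Apold1, an early gene of endothelium, had 21.9 CPM at day 4, against 72.7 CPM in the control (-1.73). It had 227 CPM at day 21, against 72.7 CPM in the control (1.64). Klf9 (-1.24) and Adm (-1.10) were lower than the control at day 21. Other AP-1 and CREB family factors had medians of 0.20 at day 4 and 0.50 at day 21, and Fosl2, a FOS family subunit, had 118 CPM at day 21, against 27.8 CPM in the control (2.09). For p53 targets the medians were 0.00 and 0.32, and for the integrated stress response and ER stress genes they were 0.28 and -0.30.

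Smaller classes were read for the share alone. NK- and ILC1-like cells had 0.546% at day 4 and 0.589% at day 21, against 0.820% in the control. Conventional dendritic-like cells had 0.499% at day 4 and 0.705% at day 21, against 0.501% in the control. Plasmacytoid dendritic-like cells had 0.316% at day 4 and 0.310% at day 21, with fewer than 50 cells in the control. At day 21 only, monocyte- and macrophage-like cells had 0.412%, neutrophil precursor-like cells 0.108% and basophil- and mast-like cells 1.81%. The precursor-like cells, which are the immature cells of the neutrophil line, thus had the lowest share of the classes given here.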

How the data were processed

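Cells from perfused, dissociated mouse liver were read by 10x 3′ sequencing, 1 library per group. The authors deposited raw UMI counts per gene and barcode, and the file headers name Cell Ranger 3.1.0, while mm10 is given per the submitters' processing notes; the lowest barcode total is 500. Barcodes with under 200 genes or over 20% mitochondrial UMIs were removed, and doublets were removed with Scrublet as run in scanpy 1.11.5 (243 at day 4 by highest scores because the automatic threshold marked too few, 732 at day 21, 40 in the control). Clusters (Leiden, leidenalg 0.10.2, resolution 1, 2000 variable genes without the members, 30 components, 15 neighbours) were named from markers; 7 of 34 stayed unnamed. Counts were summed per class and library. Both sums of a log2 ratio had 0.5 counts added and were divided by class totals; intervals are exact at 95% (Poisson, or conditional binomial, scipy 1.17.1). The summing and ratio steps were tested on simulated data.

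With 1 library per group no test across samples was possible, and the 2-fold line is a rule of size. A limit for 0 counts is 3 counts. Genes named with values were Fos, Jun, Egr1, Atf3 and Klf2 where measured, plus the 5 highest and 5 lowest ratios with 50 or more UMIs per comparison; cluster values and lists name others. The members and lists were chosen with earlier results of these data known. Fewer cells of a type and less RNA per cell do not enter a CPM, but free RNA does. Alternatives covered the cell filter, doublets, markers, depth, scaling and shared clusters. Promoter windows came from RefSeq (GRCm38.p6) and gene positions from an annotation of the same build.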

Additional observations from a re-analysis of the deposited data

Results flagged for a closer look

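Egr1 differed in direction between classes at day 4. In T-like cells it had 55.3 CPM at day 4, against 26.4 CPM in the control, a log2 ratio of 1.06 (0.61 to 1.53), and in Kupffer-like cells it had 39.7 CPM at day 4, against 110.2 CPM in the control, a log2 ratio of -1.47 (-1.701 to -1.24). The 2 log2 ratios differ by 2.53. Junb differed at day 21 between endothelial-like cells, with 1072 CPM at day 21, against 418 CPM in the control (1.36, 1.29 to 1.43), and B-like cells, with 369.6 CPM at day 21, against 1150.0 CPM in the control (-1.64, -1.77 to -1.504). The log2 ratios differ by 2.9959. Rhob differed at day 21 between Kupffer-like cells, with 234 CPM at day 21, against 76.6 CPM in the control (1.61, 1.38 to 1.84), and B-like cells, with 39.6 CPM at day 21, against 79.4 CPM in the control (-1.004, -1.47 to -0.55). The log2 ratios differ by 2.62. Of the B-like cells at day 21, 41.2% came from cluster 21, which held no control cell. Within B-like cluster 5 the day 21 log2 ratios were -0.61 for Junb and -0.53 for Rhob, so neither was 2-fold lower there. Each contrast was picked as the widest pair of opposite sign among the 5 classes other than neutrophil-like cells. None of these differences was tested, since each group is 1 library.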

How the results depend on the processing

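Each list median was set against a band, the counting interval of the member or members ranked in the middle. Of 141 list medians under 12 alternative settings and 1 added, 113 stayed inside the band and 26 left it. Another 2 changed sign where the band excluded 0. The band is not an error of the median, and a wide band is hard to leave. In neutrophil-like cells at day 4 it ran from -1.46 to 1.25, and all 10 settings stayed inside. The sign differed from the class value in 9. Of these, 7 were among the 12 values of the day 21 Kupffer-like median, whose class value is -0.011 in a band that holds 0. Of 282 counts past 2-fold, 227 stayed within 1.5 times, and all 18 medians of member UMIs per cell held. The day 4 medians stayed below 0 in the 6 classes under every alternative run, and the day 21 medians stayed above 0 in endothelial-like and stellate-like cells. T-like cluster 13 was not among these settings, and its day 4 median was 0.13. In the largest shared cluster the day 21 medians were 1.13 in Kupffer-like, -0.23 in T-like, 0.12 in B-like and -0.34 in neutrophil-like cells. The endothelial-like one was 1.15 in cluster 24, which held 4.98% of the day 21 cells of the class. For T-like cells the day 4 median in this setting was -0.88. At day 21 the sign differed from the class value in Kupffer-like, T-like and B-like cells. In that setting at day 21 Btg2 was 0.099 in Kupffer-like cells, and in neutrophil-like cells Fos was 0.10, Junb 0.30, Egr1 0.48, Egr3 0.70 and Ppp1r15a 0.018. With a mitochondrial limit of 10% the endothelial-like medians were -0.44 at day 4 and 1.06 at day 21. The T-like medians were -0.70 and 0.045, where a cluster led by Xcl1 and Cxcr6 stayed unnamed and outside the class. In B-like cells the day 21 median was -0.69, and Egr3 was -0.080. That class held 195 day 21 cells of the cluster led by Igll1 and 72 of the cluster with Ms4a1 and Fcmr. Without a cell filter the medians were -0.47 in endothelial-like cells at day 4 and -1.42 in neutrophil-like cells at day 21. In that setting a cluster led by Ltf and Olfm4 (1122 day 21 cells) stayed unnamed and outside the neutrophil-like class. With doublets kept, the day 21 medians were -0.0081 in B-like and -1.48 in neutrophil-like cells. The clusters led by Igll1 (399 day 21 cells) and by Olfm4 and Ltf (1264 day 21 cells) stayed unnamed there, outside these classes. Thinning gave 0.37 in Kupffer-like and -0.21 in B-like cells at day 21, and -0.78 in stellate-like and -0.33 in T-like cells at day 4. Naming each cell from its own markers gave 0.79 in endothelial-like cells at day 21 and -0.57 in stellate-like cells at day 4. As a mean over cells the day 21 medians were -0.20 in B-like and -1.13 in neutrophil-like cells. With the median gene set to 0 they were -0.90 in B-like and -0.87 in neutrophil-like cells, where Klf2 was 0.016 and Ier2 0.041, and the day 4 T-like median was -0.53. Without a minimum of UMIs the day 4 Kupffer-like median was -0.58. Adding the unnamed endothelial clusters, chosen after seeing the data, gave -0.39 at day 4. Settings that cluster the cells anew thus also changed which cells formed some classes. The cause of a shift was not tested for any of these settings.

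Among counts over 3, members 2-fold lower at day 4 were 4 rather than 8 in Kupffer-like cells, 7 rather than 11 in stellate-like cells and 1 rather than 5 in T-like cells after thinning, and 10 in the largest shared T-like cluster. With a minimum of 50 UMIs the T-like count was 2. At day 21 in Kupffer-like cells 14 rather than 6 members were 2-fold higher in the shared cluster, and 0 there and 1 after thinning, rather than 4, were lower. In T-like cells 4 rather than 7 were higher both after thinning and in the shared cluster. In B-like cells 1 rather than 7 was lower with doublets kept and in the shared cluster, both without the cluster led by Igll1. In neutrophil-like cells 16, 12 and 6 rather than 25 were lower as a mean over cells, with the median gene at 0 and in the shared cluster. Not run, for want of 50 cells, were the shared cluster of stellate-like cells at day 21 (13 control cells) and, for neutrophil-like cells, the limit of 10% (35 control cells) and the thinned ratios (49 control cells). No paired analysis was possible because each group is 1 library. Depth limits the rare members: Egr2, Egr3 and Nr4a3 in endothelial-like cells held at most 9 UMIs per library.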

Other observations

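Barcodes outside the classes held the members at other levels. Barcodes over the mitochondrial limit had 0.151% of UMIs from the 32 genes at day 4 and 0.509% at day 21, against 0.194% in the control. Over all barcodes the share was 0.410% at day 4 and 0.423% at day 21, against 0.623% in the control, and over kept cells it was 0.469% and 0.413%, against 0.677%. Among unnamed clusters, cluster 1 had 0.156% at day 4 and 0.415% at day 21, against 0.226% in the control, and cluster 16 had 0.325% at day 4 and 0.756% at day 21, against 0.567% in the control. Cluster 17, with hepatocyte markers, had 0.182% at day 4 and 0.320% at day 21, against 0.235% in the control. Cluster 23, with T and NK markers, had 0.459% at day 4 and 0.566% at day 21, against 0.473% in the control. All of these clusters, and the barcodes over the mitochondrial limit, were lowest at day 4 and highest at day 21. The endothelial-like class had the same order, so that order was not particular to it.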
